A study of Mus musculus with 6 samples.

Results

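The 10 genes examined here encode the subunits of AMPA receptors and several of the proteins that accompany them. They comprise the pore-forming subunits Gria1, Gria2, Gria3 and Gria4, the auxiliary subunit genes Cnih2, Cnih3 and Shisa9, and the neuronal pentraxin genes Nptx1, Nptx2 and Nptxr. They were taken by gene name from a table of 55367 genes, and all 10 had enough reads to be among the 16976 genes tested. The data were RNA-seq counts from polyadenylated RNA of C57BL/6J mouse cortical neurons, taken at postnatal day 1 (P1) and kept 2 days in culture. There were 3 wild-type (WT) and 3 Fmr1-KO libraries, the latter from mice that lack FMRP, the RNA-binding protein missing in fragile X syndrome. No treatment was given to either genotype, and the labels name neither the sex of the pups nor the number pooled in a culture. All comparisons are Fmr1-KO relative to WT.

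AMPA receptors are tetramers that carry most fast excitatory current at synapses of the brain. The GRIA2 subunit, once its mRNA has been edited at a single codon in the pore, makes the channel nearly impermeable to calcium, so the mix of subunits sets the properties of the receptor. Cornichon proteins (Cnih2, Cnih3) and CKAMP44 (Shisa9) bind to the pore subunits and alter their export from the endoplasmic reticulum or the time course of their currents. Neuronal pentraxins are extracellular proteins that cluster AMPA receptors on the postsynaptic side. Nptx1 and Nptx2 are secreted, Nptx2 in an activity-dependent manner, and Nptxr is anchored in the membrane.

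Gria2 was among the transcripts that the study assayed by RT-qPCR as NMD targets. NMD (nonsense-mediated decay) removes mRNAs on which translation ends in an unusual context. The study listed Gria2 with mRNAs that include some higher in Fmr1-KO until set against a larger rise of their pre-mRNA (unspliced transcript). It reads these as mRNAs whose increased decay is hidden by increased synthesis, which was not tested here. Its oligonucleotides show which parts of the gene that assay reads, whereas the RNA-seq counts cover every annotated exon. All 4 oligonucleotides were placed by exact match on GENCODE M21 transcripts (GRCm38), where Gria2 lies on the minus strand of chromosome 3 from 80681450 to 80802835. Capitals mark bases within exons of a protein-coding transcript with 16 exons, and lower case marks bases within its introns.
Gria2 mRNA sense primer (chr3:80802330-80802352, exon 1): TTCTCCTGTTTTATGGGGACTGA
Gria2 mRNA antisense primer (chr3:80801735-80801757, exon 2): CTACCCGAAATGCACTGTATTCT
Gria2 pre-mRNA sense primer (chr3:80801726-80801745, exon 2): ATTTCGGGTAGGGATGGTTC
Gria2 pre-mRNA antisense primer (chr3:80801563-80801582, intron): accatccttcactggcattc
The mRNA pair lay in exons 1 and 2, both within coding sequence, and was held by all 8 annotated transcripts. The pre-mRNA pair joined exon 2 to the intron that follows it. Its antisense primer was also held by 1 annotated transcript, of the class that retains an intron. Reads in that stretch can therefore enter the Gria2 counts. Of the 8 Gria2 transcripts, 2 were annotated as protein-coding, 1 as subject to NMD and 5 as retaining an intron. Gria3 and Cnih2 each had 1 transcript annotated as subject to NMD, and the other 7 genes had none. Counts summed by gene name do not separate these transcripts, and they do not separate the flip and flop forms of the Gria genes.

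Promoter windows of RefSeq (GRCm38.p6) matched 4 of the 10 genes, which were Gria2, Gria4, Cnih2 and Cnih3. The 250 bases before the transcription start are given for Gria2 and Gria4, the paralogs that were called in opposite directions below. Capitals mark matches, on either strand, to any of 7 motifs: GGGCGG (GC box), TTCAGCACC and GGACAGCGC (the left and right sides of the RE1 element), TGACGTCA and the TGACG within it (CRE, which overlap), CACGTG (E-box) and GCGCATGCG (NRF1).
Gria2 (chr3:80802836-80803085, minus strand): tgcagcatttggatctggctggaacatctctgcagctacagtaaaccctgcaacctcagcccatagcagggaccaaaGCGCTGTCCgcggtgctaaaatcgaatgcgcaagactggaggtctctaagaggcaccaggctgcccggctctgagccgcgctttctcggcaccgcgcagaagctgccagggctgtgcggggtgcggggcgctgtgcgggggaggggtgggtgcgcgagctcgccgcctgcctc
Gria4 (chr9:4796235-4796484, minus strand): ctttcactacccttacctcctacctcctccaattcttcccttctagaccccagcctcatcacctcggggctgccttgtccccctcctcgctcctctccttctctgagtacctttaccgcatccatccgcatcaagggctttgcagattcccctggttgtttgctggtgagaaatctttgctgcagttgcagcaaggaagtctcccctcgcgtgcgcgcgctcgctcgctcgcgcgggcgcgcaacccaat
The Gria2 window held 1 match, to the RE1 side GGACAGCGC, whose letters were present in 0.304% of 32851 promoter windows. The Gria4 window held no match. The Cnih2 window held 3 and the Cnih3 window 1 match to the GC box, which was present in 32.7% of windows, and Cnih3 also held 1 E-box (6.02% of windows). GC content was 64.8% for Gria2, 58.8% for Gria4, 65.6% for Cnih2 and 76.0% for Cnih3, against a median of 52.4%. These matches are descriptions of the letters in the windows.

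The libraries had totals from 30348556 to 35126207 counts, and Fmr1 was lower in all 3 Fmr1-KO libraries than in any WT library (log2 fold-change -0.98). Markers of neurons were abundant, as were those of other cells: the summed level of 10 astrocyte markers was 5631 to 5752 CPM (reads of a gene scaled to the size of the library) in WT and 4948 to 5363 in Fmr1-KO. Of these 10 astrocyte markers, 6 were called lower and 2 higher, and Gfap had the highest level (WT mean 2649 CPM). The study's methods describe depletion of ACSA2+ astrocytes and of myelin before plating. All 12 pan-neuronal markers were called lower in Fmr1-KO, with a summed level of 4045 to 4154 CPM in WT and 3128 to 3297 in Fmr1-KO. Markers of neuron types were divided. Of 10 markers of excitatory neurons, 4 were called lower and 5 higher. Their summed levels overlapped, at 684.7 to 693.3 CPM in WT and 655.2 to 687.9 CPM in Fmr1-KO. Of 11 markers of GABAergic interneurons, 6 were called lower and 5 higher. All 10 oligodendrocyte lineage markers were called lower (2346 to 2551 against 1344 to 1448 CPM), and 7 of 8 microglia markers were (164.7 to 182.6 against 96.5 to 108.4 CPM). In contrast, all 10 markers of proliferating cells were called higher (524.4 to 574.2 against 909.5 to 990.5 CPM), as were 6 of 10 markers of neural progenitors (2423 to 2442 against 2748 to 2828 CPM) and 5 of 8 markers of immature neurons (2959 to 3029 against 3457 to 3640 CPM). Markers of endothelial and mural cells were divided, with 2 of the 6 tested called lower and 3 higher (77.1 to 85.8 against 94.8 to 100.9 CPM). No listed marker was at 0 in every library. In bulk RNA, fewer cells of a type and less RNA per cell cannot be told apart, and the part of these marker shifts in the results below was not tested.

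Of the 10 genes, 5 were lower and 1 was higher in Fmr1-KO at an adjusted P under 0.05 (edgeR quasi-likelihood test, Benjamini-Hochberg over all tested genes). Among all tested genes, 21.9% were called lower and 20.7% higher. The median log2 fold-change was -0.22 for the 10 genes and 0.01 for all tested genes. Libraries of the genotypes did not overlap for 7 of the 10 genes, against 51.7% of all tested genes. Nptxr and Shisa9 had the largest decreases, to 54.6% and 65.7% of the WT mean. Gria4, Cnih3 and Cnih2 fell to between 79.5% and 83.6%, and Gria2 rose to 117.4%. Gria1, Gria3, Nptx1 and Nptx2 did not pass the threshold.

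**Figure D1:**
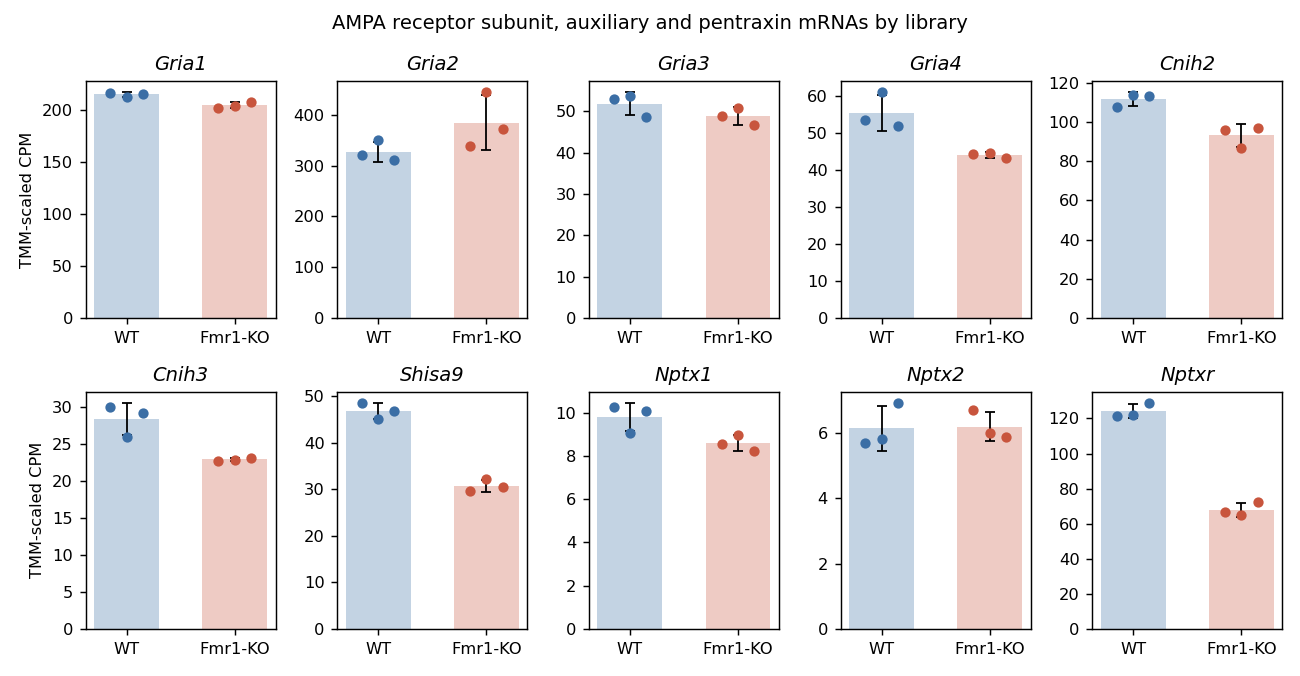
Level of each of the 10 mRNAs in CPM scaled by TMM (vertical axis, from 0, a separate scale per gene) in WT (blue) and Fmr1-KO (red). Points are libraries, bars are means and whiskers are SD (n = 3 per genotype); Nptxr and Shisa9 show the widest gaps between genotypes, and Gria2 overlaps.

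Among the pore subunits, Gria2 had the most reads. Its level was 320.1, 349.6 and 311.5 CPM in the WT libraries and 337.6, 443.8 and 370.8 CPM in the Fmr1-KO libraries. The genotypes overlapped, as Fmr1-KO replicate 1 lay below WT replicate 2, and Fmr1-KO replicate 2 stood above the others. Averages over 3 libraries were 327.0 ± 20.0 (WT) and 384.1 ± 54.3 CPM (Fmr1-KO; ± SD). The log2 fold-change of 0.23 (SE 0.06) passed in edgeR (adjusted P 0.00513) but not in DESeq2 (adjusted P 0.159). Without Fmr1-KO replicate 2 the log2 fold-change was 0.12 (edgeR adjusted P 0.0421), and without Fmr1-KO replicate 1 it was 0.32.

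Gria4, which encodes a subunit with fast kinetics that is prominent in interneurons, moved the other way. The gene lies on the minus strand of chromosome 9 from 4417896 to 4796234. Its level was 53.4, 61.0 and 51.9 CPM in WT and 44.3, 44.7 and 43.2 CPM in Fmr1-KO. All Fmr1-KO libraries were below all WT libraries, and they lay close to each other. This gave a log2 fold-change of -0.33 (SE 0.05, edgeR adjusted P 1.96e-05). Markers of GABAergic interneurons were divided, with 6 of 11 called lower and 5 higher, and their summed level was 864.5 to 897.3 CPM in WT and 910.4 to 1006 CPM in Fmr1-KO. Gad1, which encodes an enzyme of GABA synthesis, had a log2 fold-change of -0.24. The largest decreases in that list were those of Sst and Npy, which encode the neuropeptides somatostatin and neuropeptide Y, with log2 fold-changes of -2.53 and -2.43. Dlx1 and Dlx2, transcription factor genes of immature interneurons, had log2 fold-changes of 0.46 and 0.59.

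Gria1, whose subunit is recruited to synapses during potentiation, differed by little. It lies on chromosome 11 from 57011387 to 57330244. It measured 216.3, 212.6 and 215.7 CPM in WT and 202.2, 203.8 and 207.9 CPM in Fmr1-KO. The genotypes did not overlap, but the log2 fold-change was -0.07 (SE 0.03) and the adjusted P was 0.0601 by edgeR. Gria3, an X-linked gene at position 41400854 to 41678601, measured 53.0, 53.8 and 48.6 CPM in WT and 48.9, 50.9 and 46.6 CPM in Fmr1-KO. These ranges overlapped, for a log2 fold-change of -0.09 (SE 0.05, edgeR adjusted P 0.139). Gria3 passed the threshold only without WT replicate 3 (-0.13, adjusted P 0.0349). Xist, the RNA that coats the inactive X chromosome in female cells, measured 297.7 to 312.3 CPM in WT and 825.0 to 1017 CPM in Fmr1-KO. This Xist difference goes with genotype in every library, so it cannot be told apart from genotype in any comparison here. Its part in the level of Gria3 or of the other genes was not tested.

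To compare levels between genes, reads were divided by the length of annotated exons. On this scale (CPM per kilobase of exon, WT means) Gria1 was at 35.6 ± 0.331, Gria2 at 21.0 ± 1.28, Gria4 at 8.79 ± 0.775 and Gria3 at 5.25 ± 0.283 (SD, n = 3). No WT library changed this order. With the longest transcript as the length, Gria2 was at 31.5 ± 1.93 and Gria1 at 38.7 ± 0.363 in WT. Their Fmr1-KO means were close, at 37.0 ± 5.23 and 36.9 ± 0.538, but the libraries differed in order. Gria2 was below Gria1 in Fmr1-KO replicate 1 (32.56 and 36.46) and replicate 3 (35.75 and 37.5). It was above Gria1 in Fmr1-KO replicate 2 (42.79 and 36.74). On this length Gria3 and Gria4 were close, at 9.95 ± 0.536 and 10.2 ± 0.897 in WT, where their spreads overlap. In WT replicate 1 Gria3 was then above Gria4 (10.2 and 9.82 CPM per kilobase).

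Shares within the Gria pool do not depend on scaling between libraries, but they make up a whole and so depend on each other. Gria2 made up 29.3%, 30.9% and 29.1% of Gria reads per kilobase in WT and 32.3%, 38.3% and 34.1% in Fmr1-KO. Every Fmr1-KO library was thus above every WT library in this share, with a mean difference of 5.17 percentage points. Gria4 went from 12.4 ± 0.746% to 9.93 ± 0.487% (SD, n = 3 per genotype), again without overlap. Both differences had P = 0.1 in a 2-sided exact permutation test, which is the smallest that 3 against 3 libraries can give, and 0.16 after adjustment over the 8 shares examined. The shares of Gria1 (50.4 ± 1.82% and 48.1 ± 2.49%) and Gria3 (7.44 ± 0.253% and 7.03 ± 0.321%) overlapped between genotypes. Without Fmr1-KO replicate 2 the Gria2 difference was 3.48 percentage points, and that of Gria1 went from -2.26 to -0.83. With reads not divided by length the Gria2 difference was 5.82, and that of Gria3 went from -0.41 to -0.80 (7.74% to 8.24% in WT and 6.85% to 7.72% in Fmr1-KO, without overlap, exact permutation P = 0.1).

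**Figure D2:**
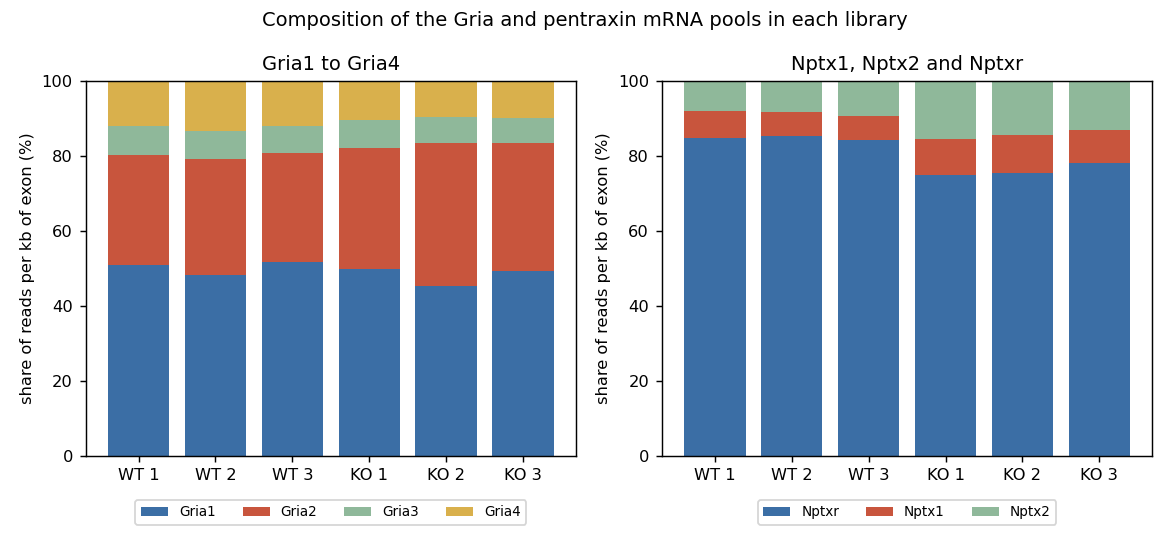
Share of each gene in the reads per kilobase of exon (vertical axis, percent) of the Gria pool (left) and the neuronal pentraxin pool (right), with 1 bar per library. The Gria2 segment is 29.1% to 30.9% in WT and 32.3% to 38.3% in Fmr1-KO, and the Nptxr segment is 84.2% to 85.4% in WT and 75.0% to 78.2% in Fmr1-KO.

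All 3 auxiliary genes of the group were lower in Fmr1-KO. Shisa9 encodes CKAMP44, a transmembrane protein that modulates desensitization of AMPA receptors, and lies on chromosome 16 from 11984113 to 12270902. It measured 48.6, 45.2 and 46.8 CPM in WT and 29.7, 32.2 and 30.5 CPM in Fmr1-KO. The gap between the genotypes was several times the range within either, for a log2 fold-change of -0.61 (SE 0.05, edgeR adjusted P 1.09e-09). Cnih2, the most abundant of the 10 genes per kilobase (81.4 ± 2.62 CPM per kilobase in WT; 68.05 ± 4.20 in Fmr1-KO; SD, n = 3), promotes export and slows deactivation of the receptor. It lies on chromosome 19 from 5092868 to 5098521. It measured 107.3, 113.7 and 113.4 CPM in WT and 95.8, 86.6 and 97.1 CPM in Fmr1-KO. Relative to WT it stood at -0.26 on the log2 scale (SE 0.04, edgeR adjusted P 2.83e-05), and no Fmr1-KO library reached a WT library. Cnih3, its close paralog on chromosome 1 (181352628 to 181460641), measured 29.95, 25.9 and 29.2 CPM in WT and 22.7, 22.9 and 23.1 CPM in Fmr1-KO. Relative to WT it stood at -0.31 on the log2 scale (SE 0.06, edgeR adjusted P 0.000171).

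The cornichon genes kept nearly the same proportion to each other. Cnih2 made up 88.75 ± 1.01% of the Cnih2 and Cnih3 reads per kilobase in WT and 89.1 ± 0.610% in Fmr1-KO (SD, n = 3 per genotype). The difference of 0.332 percentage points was smaller than the spread between libraries (exact permutation test, 2-sided, P = 0.7), and it turned to -0.141 without WT replicate 1. In 3 libraries per genotype a small difference in proportion would not be detectable.

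Of the 3 pentraxin genes, only Nptxr passed the threshold. Nptxr encodes the neuronal pentraxin receptor, which lies on chromosome 15 from 79786351 to 79804766, on the minus strand. It measured 121.5, 122.1 and 128.8 CPM in WT and 66.4, 64.7 and 72.3 CPM in Fmr1-KO. The highest Fmr1-KO library was well below the lowest WT library, and the log2 fold-change of -0.87 (SE 0.04; edgeR adjusted P 5.32e-13) was the largest decrease of the group. GENCODE M21 annotates 890 exon bases of Nptxr as shared with Npcd on the same strand, and Npcd is at 0 in all 6 libraries, so reads in those bases may not have been assigned to either gene.

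Nptx1 (chromosome 11, 119538719 to 119547753) and Nptx2 (chromosome 5, 144545902 to 144557478) had few reads. Nptx1 measured 10.2, 9.04 and 10.1 CPM in WT and 8.55, 8.98 and 8.25 CPM in Fmr1-KO. Its highest Fmr1-KO library was just below its lowest WT library. The log2 fold-change of -0.19 (SE 0.08) did not pass the threshold (edgeR adjusted P 0.0650), except without WT replicate 2 (-0.25, adjusted P 0.0271). Nptx2 measured 5.70, 5.81 and 6.92 CPM in WT and 6.70, 6.01 and 5.89 CPM in Fmr1-KO, from 184 to 231 reads per library. The ranges coincided, with a log2 fold-change of 0.01 (SE 0.10; edgeR adjusted P 0.928). Its sign turned on leaving out any of 3 libraries, to -0.04 (WT replicate 1), -0.02 (WT replicate 2) and -0.05 (Fmr1-KO replicate 1). In the pentraxin pool, Nptxr went from 84.8 ± 0.606% to 76.2 ± 1.74% of pentraxin reads per kilobase, Nptx1 went from 6.63 ± 0.413% to 9.59 ± 0.765%, and Nptx2 from 8.54 ± 0.602% to 14.2 ± 1.22% (SD, n = 3 per genotype). None of these shares overlapped between genotypes, and each had P = 0.1 in the exact permutation test, the smallest possible here, or 0.16 after adjustment. The 3 shares make up the whole pool, so those of Nptx1 and Nptx2 together rise by what Nptxr loses. These shares are therefore not separate results, and neither Nptx1 nor Nptx2 was itself called higher. With reads not divided by length the Nptx2 share was 4.38% in WT and 7.52% in Fmr1-KO, a difference of 3.14 rather than 5.69 percentage points. The length used for Nptxr includes the 890 exon bases shared with Npcd, so its share per kilobase may be too low in both genotypes.

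Because pan-neuronal markers were lower in Fmr1-KO, each gene was also expressed per 1000 reads of the 12 pan-neuronal markers in the same library. This denominator was chosen after the data were seen and rests mostly on Map2, Tubb3 and Stmn2, which have the most reads. On this scale Nptxr had 30.02, 29.4 and 31.9 reads in WT and 20.7, 20.7 and 21.9 in Fmr1-KO, a log2 difference of -0.53. Shisa9 had a lower level in Fmr1-KO as well (10.9 to 12 against 9.25 to 10.3 reads; log2 difference -0.26). Gria4, Cnih2 and Cnih3 had log2 differences of 0.02, 0.09 and 0.04, and the genotypes overlapped for all 3. Gria2 had 79.1, 84.2 and 77.0 reads in WT and 105.2, 141.9 and 112.5 in Fmr1-KO (log2 difference 0.57), and Gria1, Gria3 and Nptx2 also had positive differences, of 0.28, 0.26 and 0.36. The change of denominator added 0.34 to 0.35 on the log2 scale to every one of the 10 genes, so which signs it turned followed from the fold-changes given above and says nothing further about single genes.

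**Figure D3:**
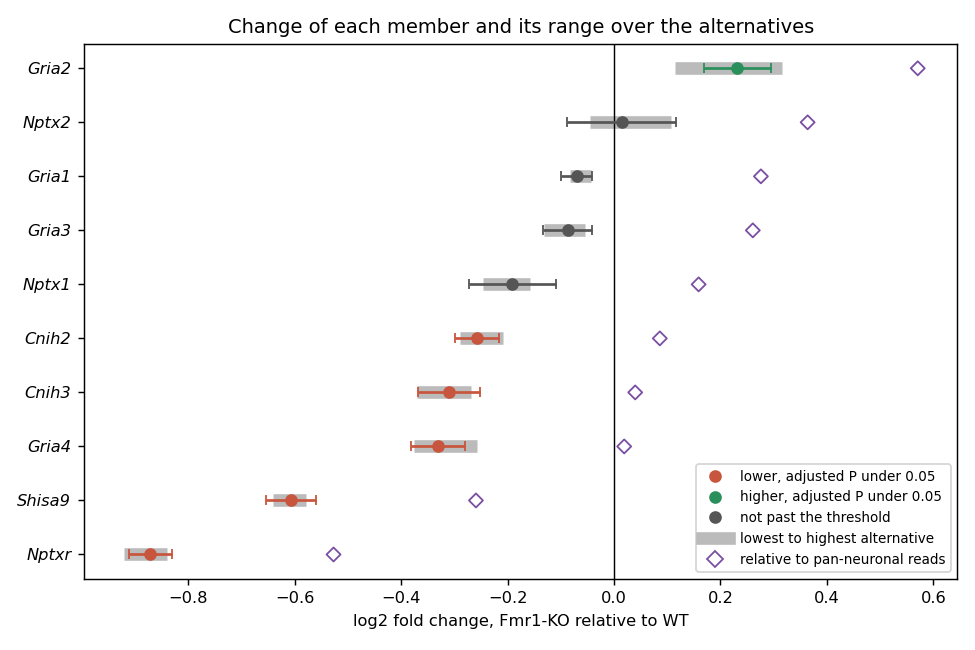
Log2 fold-change of each gene in Fmr1-KO relative to WT (horizontal axis; circles with SE, red for called lower, green for called higher, grey for neither). Pale bands run from the lowest to the highest value over the alternative settings, and open diamonds give the difference relative to pan-neuronal reads, which lies 0.34 to 0.35 above the fold-change for every gene (Nptxr -0.53, Gria2 0.57).

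Other proteins that assemble with AMPA receptors were examined as a list of 22 genes, 21 of which were tested (Prrt2 had too few reads). Of these, 11 were lower and 2 were higher by edgeR, with a median log2 fold-change of -0.11. The shares of all tested genes were 21.9% lower and 20.7% higher. Among the TARPs, the transmembrane regulatory proteins that tie the receptor to the scaffold, Cacng3 fell by 0.86 on the log2 scale, with 12.5 ± 0.499 CPM in WT and 6.89 ± 0.195 CPM in Fmr1-KO (± SD, n = 3 each). Cacng2, which encodes stargazin, and Cacng8 had log2 fold-changes of -0.29 and -0.30. Cacng4, the TARP gene with the most reads, did not pass the threshold (-0.04, edgeR adjusted P 0.291), and Cacng5 rose from 46.9 ± 2.24 to 64.1 ± 0.400 CPM, a log2 fold-change of 0.45. The relatives of Shisa9 were divided: Shisa6 and Shisa7 had log2 fold-changes of -0.67 and -0.42, while Shisa8, at 2.89 ± 0.891 CPM in WT and 5.14 ± 0.584 CPM in Fmr1-KO, had one of 0.84. Syndig1, which encodes a synapse differentiation protein that binds AMPA receptors, had the largest decrease of the list (-0.87, SE 0.09). Frrs1l, needed for assembly of the receptor in the endoplasmic reticulum, had a log2 fold-change of -0.34, whereas its partner Cpt1c did not pass the threshold (0.10, edgeR adjusted P 0.0849). The call of Cacng7 (-0.09) was lost without WT replicate 3, Fmr1-KO replicate 2 or Fmr1-KO replicate 3, that of Sacm1l (-0.11) without WT replicate 2 or Fmr1-KO replicate 1, and both with library totals alone. Cpt1c passed the threshold with library totals alone and without Fmr1-KO replicate 3.

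Genes of AMPA receptor trafficking and scaffolding were mostly lower as well. Of 22 genes, all tested, 13 were lower and 2 were higher by edgeR, with a median log2 fold-change of -0.13. The shares of all tested genes were 21.9% lower and 20.7% higher. Dlg2, a PSD-95 relative, had the largest decrease (-0.65, SE 0.03), and Dlg4, which encodes PSD-95 itself, fell by 0.36 on the log2 scale, with 252.5 ± 8.16 CPM in WT and 196.7 ± 4.75 CPM in Fmr1-KO (± SD, n = 3 each). Grip1 and Grip2, scaffold proteins that bind the tail of GRIA2, had log2 fold-changes of -0.21 and -0.57, while Pick1, which binds the same tail, did not pass the threshold (0.05, edgeR adjusted P 0.553). Epb41l1, which encodes a cytoskeletal protein that binds GRIA1, had a log2 fold-change of -0.56. Nsf, an ATPase that also binds GRIA2, had a log2 fold-change of -0.45. Exoc4 (0.15) and Dlg1 (0.10) were the 2 genes called higher. The call of Dlg1 was lost under DESeq2 (adjusted P 0.0547) and on leaving out WT replicate 1 or 3, or Fmr1-KO replicate 1 or 2 (lowest edgeR adjusted P 0.0542). Exoc4 was then the only gene of the list called higher, except that Nsg2 also passed without Fmr1-KO replicate 2 (0.09, adjusted P 0.0119). The call of Ap2b1, among the 13 lower genes, was lost in the same 4 fits without a library. With library totals alone Ap2b1 was also lost (adjusted P 0.0950) and Nsg2 was called higher (0.09, adjusted P 0.0216).

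**Figure D4:**
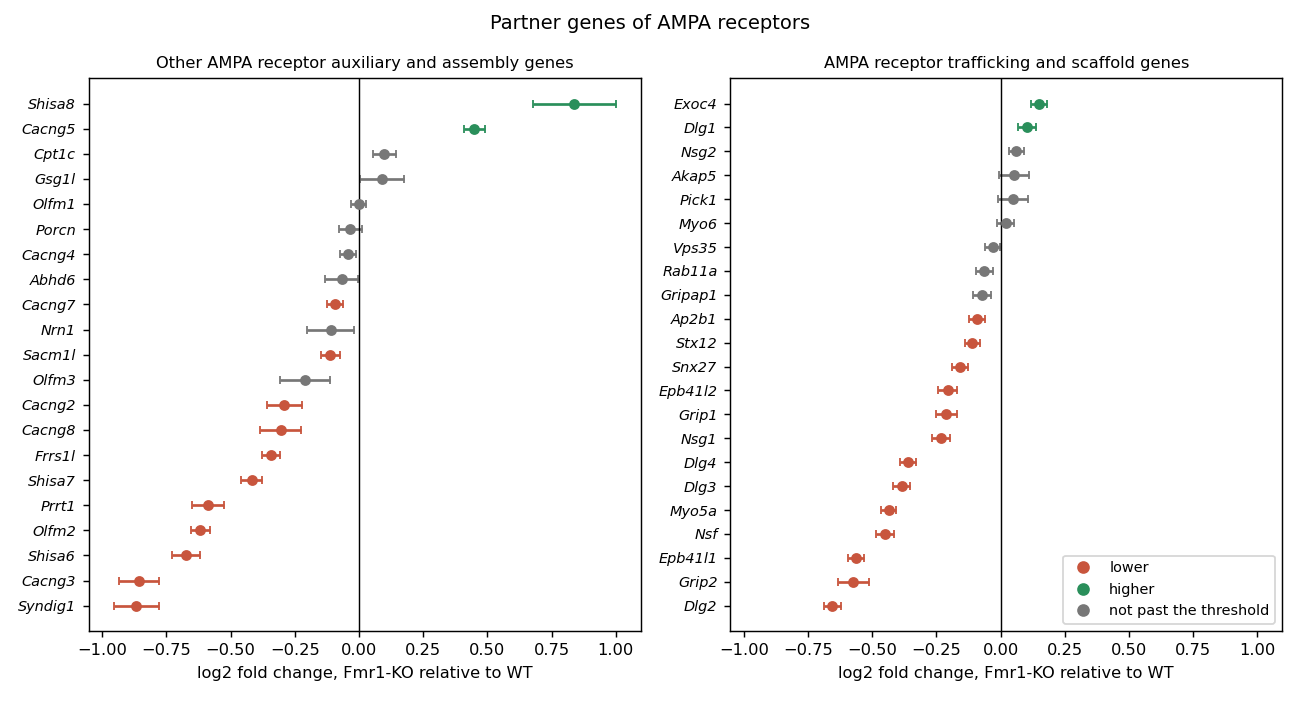
Log2 fold-change with SE (horizontal axis) of AMPA receptor partner genes in Fmr1-KO relative to WT, for 21 auxiliary and assembly genes (left) and 22 trafficking and scaffold genes (right). Red marks genes called lower, green higher and grey neither; Syndig1 (-0.87) and Shisa8 (0.84) are at the ends of the left list.

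Genes of the ADAR family of RNA-editing enzymes were measured too. Adarb1, which encodes ADAR2, the enzyme that edits that codon, measured 69.9 ± 3.70 CPM in WT and 45.4 ± 0.442 CPM in Fmr1-KO (± SD, n = 3 each), or -0.62 on the log2 scale (SE 0.04; edgeR adjusted P 1.50e-10). Adarb2 was called lower (-0.13, edgeR adjusted P 0.0363), although its genotypes overlapped. That call was lost under upper-quartile normalization (adjusted P 0.0547), library totals alone (0.0953), DESeq2 (0.0690) and the replicate block (0.0503), and on leaving out WT replicate 1 or 3 (0.194 and 0.0553) or Fmr1-KO replicate 1 (0.225). Adar did not pass the threshold (-0.05, edgeR adjusted P 0.195). Counts per gene do not report editing itself.

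The other families of ionotropic glutamate receptors held 14 NMDA, kainate and delta receptor genes. By edgeR 10 of these were lower and 2 were higher, with a median log2 fold-change of -0.49. Of the 4 Gria genes, 1 was lower and 1 higher, with a median of -0.08. The shares of all tested genes were 21.9% lower and 20.7% higher. Grin1, the obligatory NMDA receptor subunit, had a log2 fold-change of -0.92 (SE 0.04). Grin2d, another NMDA receptor subunit gene, and Grik1, a kainate receptor subunit gene, had log2 fold-changes of -1.06 and -0.86. Grik2, which encodes a kainate receptor subunit, was called higher with a log2 fold-change of 0.23, and so was Grin2c (0.62). Whether the Gria genes as a family moved less than the other families was not tested.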

How the data were processed

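Polyadenylated RNA was sequenced from cultures of 3 WT and 3 Fmr1-KO samples, grouped by the genotype in the labels. The study calls its samples independently derived, but the labels do not tie them to litters, so P values measure the spread between these samples. The authors trimmed the reads (FastP), aligned them to GRCm38.p6 with STAR (2.7.6a in the submitters' processing notes) and counted reverse-stranded reads per gene name with featureCounts (Subread 2.0.1 in those notes, while the methods give another version). The deposited table holds these raw counts, which were used without change. Totals were 30348556 to 35126207 counts per library, and the highest was 1.16 times the lowest.

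Genes were kept by filterByExpr and scaled by TMM, and Fmr1-KO was compared with WT by the quasi-likelihood test of edgeR (4.0.16, in R 4.3.3) with Benjamini-Hochberg adjustment over 16976 genes and a threshold of 0.05. CPM are relative to the TMM-scaled total, and SDs are over 3 libraries. Lengths and positions came from GENCODE M21, an earlier release on the same build as the authors' annotation. Exon lengths were the union of all exons of a gene. Shares were compared by a 2-sided exact permutation test (Python 3.11.15). All 10 genes were named with their values. From the other gene lists, up to 3 called genes per direction without overlap were named by size of change, with Cacng2, Cacng8, Frrs1l, Dlg4, Grip1, Pick1, Adarb1 and Grin1 whatever their result, and from marker lists those of highest level. Other genes named from the lists, such as Nsf, Shisa7, Bdnf, Gad2, Sst, Npy and Dlx2, and Xist, were chosen after their values were seen. The genes and lists were chosen with earlier results of these data known. The code was tested on simulated data. Other scalings, filters, a minimum fold change, DESeq2 (1.42.0), a replicate block and the omission of each library were tried. Same-numbered WT and Fmr1-KO samples did not deviate together (correlations -0.0289, 0.0323 and -0.0147 across genes).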

Additional observations from a re-analysis of the deposited data

How the results depend on the processing

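Nptxr, Shisa9, Gria4, Cnih2 and Cnih3 were called lower under the other normalizations and filters, DESeq2, the block and the omission of each library. Against a minimum fold change of 1.2, 2 of the 10 genes were lower (Nptxr and Shisa9) and 0 higher, so that the calls of Gria4 (adjusted P 0.183), Cnih3 (0.380), Cnih2 (0.940) and Gria2 (1) were lost, and the list of auxiliary and assembly genes had 7 lower, while the trafficking list had 7 lower and 0 higher. The shares of all tested genes given above are those of the main test. Shares called under the other settings are not given here, so the counts of this section have no background beside them. DESeq2 called 0 of the 10 genes higher and 1 of the trafficking genes. A stricter filter left 1 auxiliary gene called higher, since Shisa8 was not tested there. When each library was left out in turn, 5 to 6 of the 10 genes were lower and 1 higher, the trafficking genes called higher numbered 1 to 2, and the Nptx2 log2 fold-change ranged from -0.0460 to 0.108 and the Cnih2 share difference from -0.141 to 0.861 percentage points. Relative to pan-neuronal reads, a scale chosen after seeing the data, the log2 difference was 0.276 for Gria1, 0.261 for Gria3, 0.0191 for Gria4, 0.0861 for Cnih2, 0.0398 for Cnih3 and 0.159 for Nptx1, of opposite sign because that scale added 0.34 to 0.35 to every gene. The cause of the other changes was not tested.

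The samples share only a number across genotypes, and with the replicate block 5 of the 10 genes were lower and 1 higher, as without it. With 184 to 231 reads per library, Nptx2 is measured with an SE of 0.10, and small differences in it are not detectable at this depth.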

Other observations

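Nptx2 is induced by neuronal activity, and 10 other activity-dependent genes were examined beside it. Of these, 5 were lower and 2 were higher by edgeR, with a median log2 fold-change of -0.43 in Fmr1-KO relative to WT. Among all tested genes, 21.9% were called lower and 20.7% higher. Fos, Fosb and Npas4 did not pass the threshold (edgeR adjusted P 0.0852, 0.0624 and 0.228). The immediate early genes Arc and Egr1 had log2 fold-changes of 0.34 and 0.36, whereas Egr2 and Junb, also immediate early genes, had log2 fold-changes of -0.71 and -0.49. Bdnf, which encodes a neurotrophin, and Homer1, a scaffold gene, had log2 fold-changes of -0.44 and -0.45.

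The genes whose levels across the 6 libraries lay closest to those of Nptxr, each relative to its own mean, were Rgs5, Lsm11 and Syt1, with root mean square distances of 0.0318, 0.0322 and 0.0362 on the log2 scale. For Gria2 they were Pde8a, Ttc14 and Ppig, at 0.0385, 0.0412 and 0.0452. Pde8a had few reads, at 0.76 CPM in WT and 0.87 CPM in Fmr1-KO, so its closeness to Gria2 is uncertain.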
